A study of Homo sapiens with 4 samples.

Results

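FOXC1 binding in J82, a cell line from a human bladder carcinoma, was examined at 46 listed genes of WNT signaling: 19 WNT ligands, 10 Frizzled receptors, 2 co-receptors, 2 ROR receptor tyrosine kinases, 4 TCF/LEF factors, β-catenin with 2 axins, 2 Dickkopf genes and 4 planar polarity genes. The genes were taken from a list of symbols, and all 46 were found among the 20163 protein-coding genes that the annotation places on chromosomes 1 to 22, X and Y. A FOXC1 peak was assigned to a gene when its summit, the base with the highest signal, lay in the gene body or within 20 kb of it. FOXC1 was immunoprecipitated with the antibody D8A6 in 2 biological replicates of J82 cells cultured in DMEM with serum. The labels name no treatment or genetic change, and peaks were called against input, sequenced in 2 libraries made without antibody. All positions are given on hg19.

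WNT proteins are secreted ligands that bind Frizzled receptors together with the co-receptors LRP5 and LRP6. In the canonical branch this stops a complex built on axin from destroying β-catenin, which then enters the nucleus and works with TCF/LEF factors on their target genes. In the other branches, WNT ligands signal through Frizzled and ROR receptors without β-catenin, and PRICKLE and VANGL proteins carry planar cell polarity. FOXC1 is a forkhead transcription factor, and forkhead proteins recognize short sequences built around TAAACA.

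Peaks that overlapped between the replicates by at least 1 bp were merged into shared regions. A shared region was called strong when its peaks had a −log10 q of at least 5 in both replicates, where q is the p-value of the peak adjusted for multiple testing by the peak caller. Fold enrichment is the ChIP signal at the summit over the local background. The ChIP depth estimated from the peak values was similar, at 43.2 M reads in replicate 1 and 41.5 M reads in replicate 2, but replicate 2 listed 41789 peaks on these chromosomes and replicate 1 listed 22405. The lists gave 13238 shared regions, of which 6726 were strong. In a bulk assay of this kind, more cells with a bound site and more binding per cell cannot be told apart.

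Peaks of at least 1 replicate were assigned to 39 of the 46 WNT pathway genes. The lists include weak peaks. Without a partner in the other replicate, peaks at these genes had a −log10 q down to 0.297 in replicate 1 and 0.453 in replicate 2. A peak of replicate 1 was assigned to 23 and a peak of replicate 2 to 36. Of all 20163 protein-coding genes, 14223 had a peak of at least 1 replicate, 9467 of replicate 1 and 13340 of replicate 2. Fewer genes had a region shared by both replicates. At least 1 shared region was assigned to 17 of the 46 genes (36.96%), compared with 33.0% of all protein-coding genes, and at least 1 strong shared region to 12 (26.1%), compared with 20.2%. These shares were near those of all genes. The 46 genes held 56 peaks of replicate 1 and 111 of replicate 2, which gave 31 shared regions, 18 of them strong. Another 22 genes had peaks but no shared region, of which 16 had peaks of replicate 2 only, 3 had peaks of replicate 1 only, and 3 (WNT11, LRP6 and TCF7) had peaks of both that did not overlap. This split was not computed for all protein-coding genes. No peak of either replicate was assigned to WNT3A, WNT8B, WNT10A, FZD3, FZD10, AXIN1 or VANGL2.

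**Figure D1:**
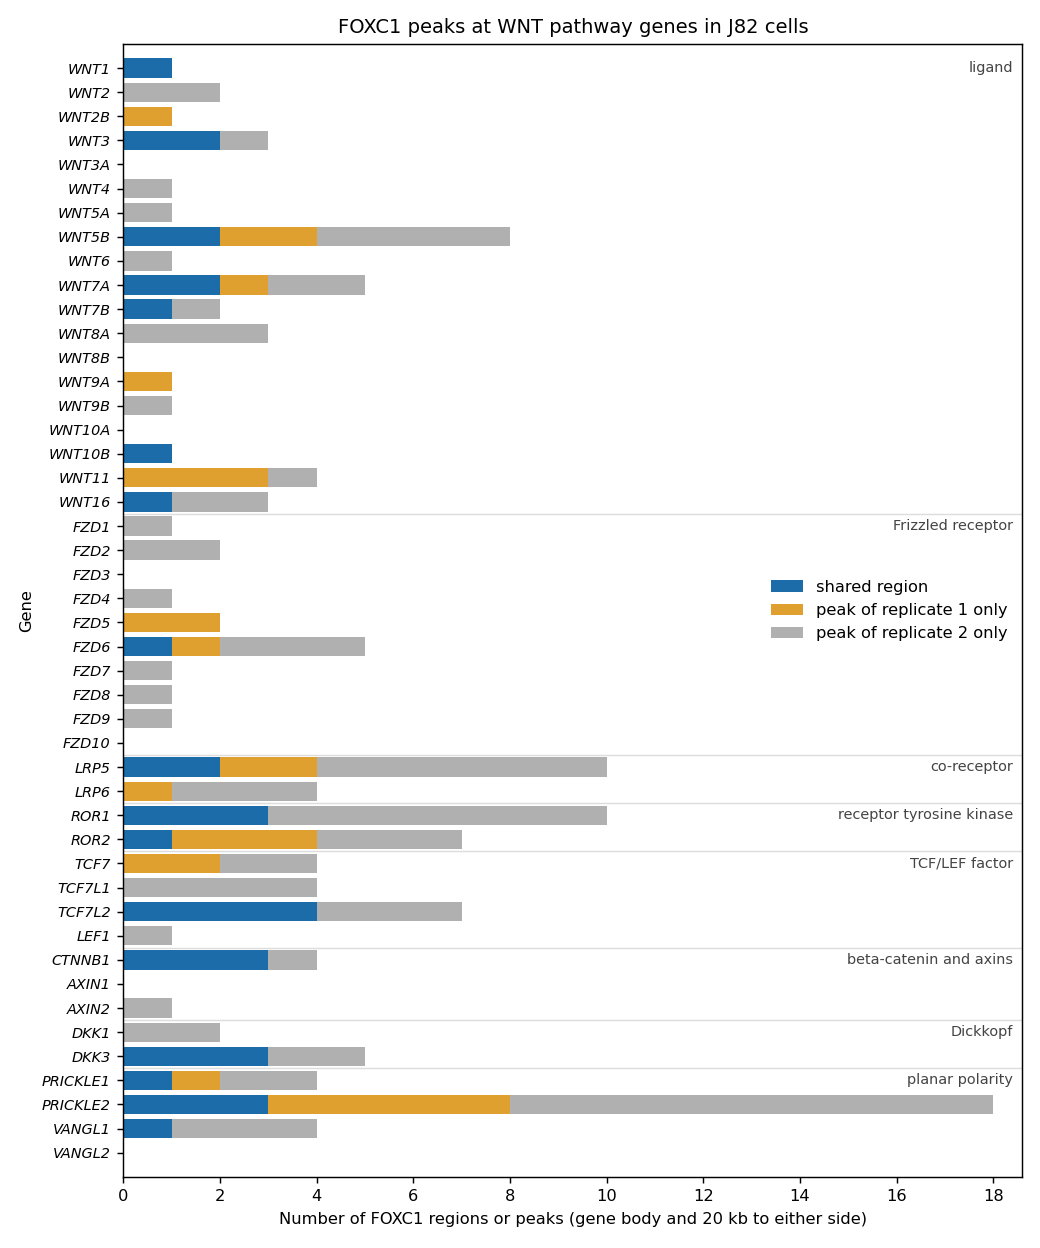
Number of shared FOXC1 regions (blue), peaks listed in replicate 1 only (orange) and peaks listed in replicate 2 only (grey) in the body of each of the 46 genes and 20 kb to either side, grouped by role. Blue bars stand at 17 genes and 7 genes have no bar, while the single region counted for both WNT1 and WNT10B is the same one.

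Long genes held a shared region more often, as they did across the genome. For windows (gene body with both flanks) under 60 kb, 3 of 15 WNT pathway genes had a shared region (20%, 95% Wilson interval 7.05 to 45.2%), compared with 19.3% of all protein-coding genes with such windows. For windows of 60 to 120 kb, 7 of 20 did (35%, interval 18.1 to 56.7%), compared with 31.9%. For windows over 120 kb, 7 of 11 did (63.6%, interval 35.4 to 84.8%), compared with 60.4%. Each background share lay inside the interval of the WNT pathway genes. Summed over all windows, the genes held 0.622 shared regions per 100 kb, compared with 0.529 for all protein-coding genes, and the median gene of both sets held 0.

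**Figure D2:**
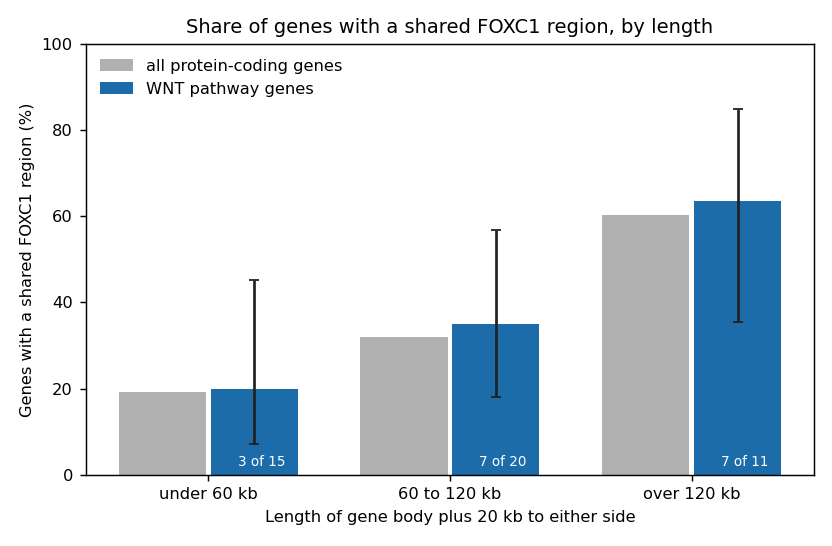
Percentage of genes with at least 1 shared FOXC1 region, by length of the gene body plus 20 kb to either side, for all protein-coding genes (grey) and the 46 WNT pathway genes (blue, with 95% Wilson intervals). The 2 bars of each length class lie close to each other, and both are higher for longer windows.

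PRICKLE2 carried the strongest FOXC1 region of the 46 genes. Its protein is a cytoplasmic component of planar cell polarity. The region at chr3:64172459-64173675 was enriched 59.9-fold in replicate 1 and 84.3-fold in replicate 2 (mean 72.1 ± 17.2, SD, n = 2), with 409 reads over the summit in replicate 1 (exact Poisson 95% interval 370.3 to 450.6) and 500 in replicate 2 (457.1 to 545.8). It ranked within the first 7 peaks of both lists. The summit lay in an intron of PRICKLE2 (chr3:64077912-64431152, minus strand), 258157 bp downstream of the most upstream annotated start, 38147 bp downstream of the start of the canonical transcript and 225 bp from a start of the antisense gene PRICKLE2-AS3. The 101 bp around the summit, chr3:64172945-64173045 on the plus strand, are shown because this is the strongest site at a WNT pathway gene. Capitals mark a match to the extended forkhead element (CCAA placed 4 bases before the ending of a forkhead site, either AACA or AATA), which here also contains the forkhead form ATAAATA, centred 2 bp from the summit.
PRICKLE2: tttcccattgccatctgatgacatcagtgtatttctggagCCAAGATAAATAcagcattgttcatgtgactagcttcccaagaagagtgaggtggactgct

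The other FOXC1 peaks of PRICKLE2 were lower. Of its 8 peaks in replicate 1 and 13 in replicate 2, 3 of each formed shared regions. The shared region at chr3:64338784-64339263 had fold enrichments of 2.88 and 7.18 in replicates 1 and 2, and that at chr3:64164134-64164534 had 2.79 and 4.44. Both matched GTAAACA within 50 bp of the summit, and neither passed the −log10 q of 5 in replicate 1. The map of peaks along the gene shows 1 site far above the other peaks.

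The regions of the remaining planar polarity genes were lower than that of PRICKLE2, and the medians of all shared regions were 3.79 and 6.71 in replicates 1 and 2. PRICKLE1 had 1 shared region, chr12:42877969-42878407, with fold enrichments of 2.74 and 9.15 (mean 5.95 ± 4.53, SD, n = 2). Its summit lay in annotated untranslated sequence 21 bp from a PRICKLE1 start, and 105323 bp downstream of the canonical start. For VANGL1, a membrane protein of the same polarity complex, the only shared region lay 13230 bp beyond the 3′ end of the gene in an intron of CASQ2, with fold enrichments of 3.86 and 6.11.

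**Figure D3:**
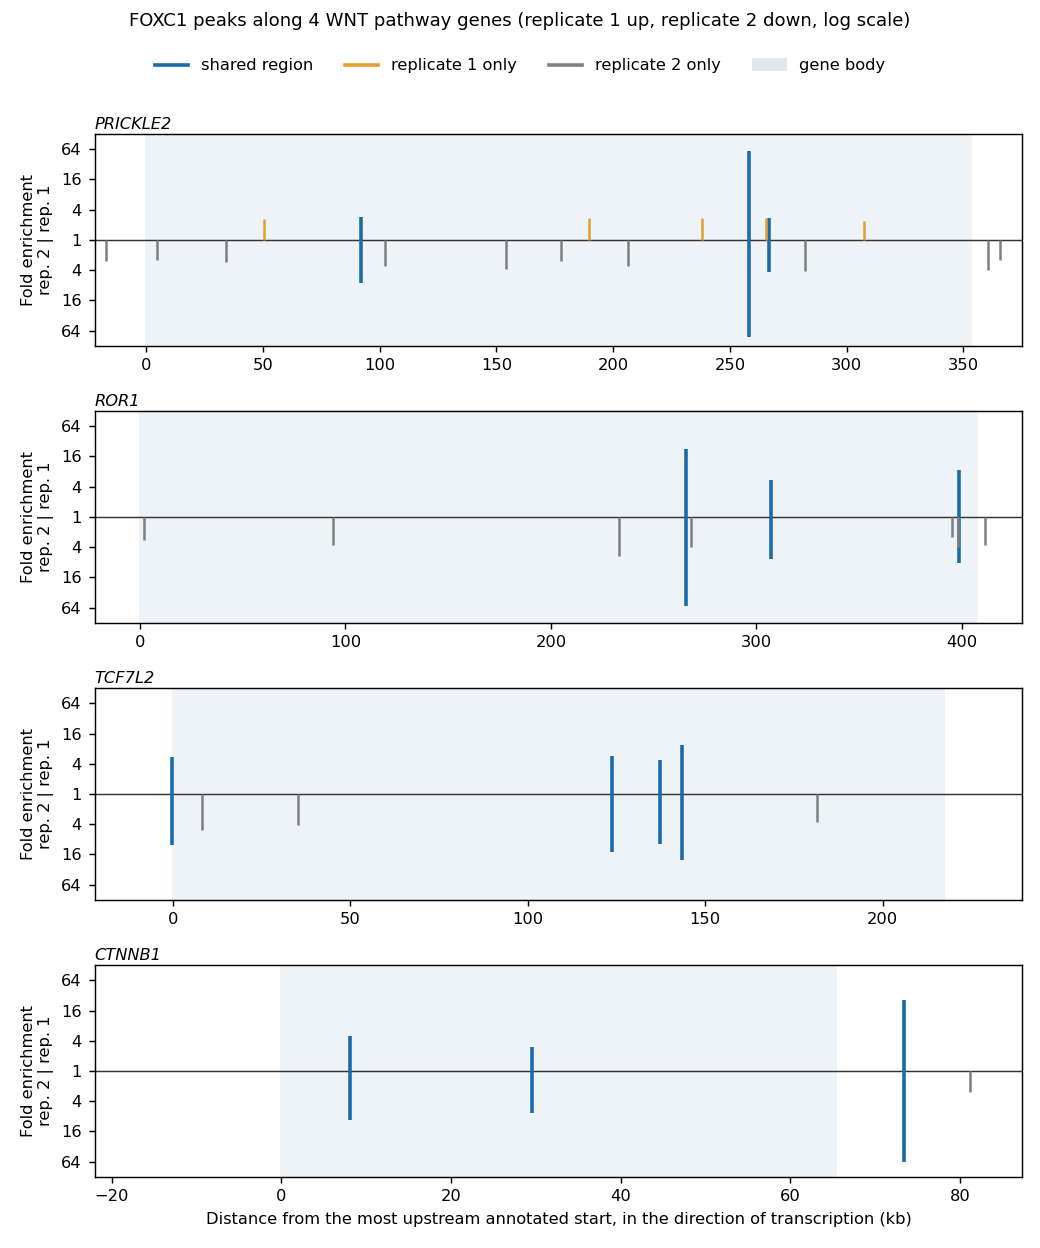
FOXC1 peaks along PRICKLE2, ROR1, TCF7L2 and CTNNB1, by distance from the most upstream annotated start in kb. Bar height is the fold enrichment on a log scale, upward for replicate 1 and downward for replicate 2, for shared regions (blue), peaks of 1 replicate only (orange and grey) and gene bodies (shaded). PRICKLE2 and ROR1 each have 1 region that stands far above the rest, TCF7L2 has 3 regions close together, and the tallest CTNNB1 region lies beyond the gene.

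The ROR receptors, tyrosine kinases that bind WNT5A in non-canonical signaling, both had shared regions. Their windows were long, at 447 kb for ROR1 and 427 kb for ROR2, and 60.4% of all genes with windows over 120 kb had a shared region. ROR1 held 0.670 and ROR2 0.234 shared regions per 100 kb, compared with 0.529 for all protein-coding genes. ROR1 (chr1:64239688-64647181, plus strand) had 3 peaks in replicate 1, and all 3 formed strong shared regions, while 7 of its 10 peaks in replicate 2 had no partner. The strongest, chr1:64504793-64505845, lay in an intron 265710 bp downstream of the start with fold enrichments of 22.6 and 59.4 (mean 41.0 ± 26.0, SD, n = 2). The protein-coding start nearest to it was that of UBE2U, at 163908 bp. The reads over the summit differed less than the fold enrichment, at 285 (interval 252.9 to 320.1) in replicate 1 and 393 (interval 355.1 to 433.8) in replicate 2, a ratio of 1.38 compared with 2.63 for the fold enrichment. The local background at this site was 2.81 times the genome-wide background in replicate 1 and 1.33 times in replicate 2. The sequence at chr1:64505348-64505448 is shown because this region was among the 3 with the highest mean fold enrichment and held no 7-base forkhead consensus. Capitals mark the extended element, here on the minus strand.
ROR1: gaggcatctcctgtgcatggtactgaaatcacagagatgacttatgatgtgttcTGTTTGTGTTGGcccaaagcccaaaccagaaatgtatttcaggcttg

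The other ROR1 regions and the ROR2 region were weaker. The region at chr1:64638071-64638563 had nearly equal fold enrichments of 8.47 and 8.35, and lay 1283 bp from a start of ROR1-AS1. The region at chr1:64546592-64547066 had 5.35 and 6.87. UBE2U also had the protein-coding start nearest to these ROR1 regions, at 30998 and 122441 bp. For ROR2 (chr9:94325373-94712510, minus strand), 1 of 4 peaks in each replicate was shared. This region, chr9:94539166-94539859, lay 1395 bp from the start of a ROR2 transcript that begins inside the gene and 173052 bp from the canonical start, with fold enrichments of 3.91 and 7.06 (mean 5.48 ± 2.23, SD, n = 2).

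β-catenin, encoded by CTNNB1 (chr3:41236232-41301587, plus strand), had 3 shared regions among 3 peaks of replicate 1 and 4 of replicate 2. The strongest, chr3:41309072-41310127, did not lie in CTNNB1 but 8098 bp beyond its 3′ end, in an intron of ULK4, and the nearest protein-coding start was that of ULK4 at 9957 bp. Its fold enrichments were 26.0 and 64.3 (mean 45.1 ± 27.1, SD, n = 2), with 235 reads (interval 205.9 to 267.0) and 358 reads (interval 321.9 to 397.1) over the summits. As at ROR1, the local background was higher in replicate 1, at 1.94 times the genome-wide value compared with 1.08 times in replicate 2. Within the gene, an intronic region at chr3:41244046-41244826 was found 3307 bp downstream of the canonical start, with fold enrichments of 5.01 and 9.602 (mean 7.30 ± 3.25, SD, n = 2). The last, chr3:41265589-41266086, had 2.97 and 6.71 and its summit in an exon. Sequences of the first 2 are shown, at chr3:41309635-41309735 and chr3:41244253-41244353, because they carried different elements. Capitals mark AP-1 sites (TGACTCA or TGAGTCA, each the reverse complement of the other) in the region beyond the gene, and GTAAACA on the minus strand in the region within it.
CTNNB1, beyond the 3′ end: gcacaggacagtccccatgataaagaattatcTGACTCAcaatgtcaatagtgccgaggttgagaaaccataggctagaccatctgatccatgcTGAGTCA
CTNNB1, intron: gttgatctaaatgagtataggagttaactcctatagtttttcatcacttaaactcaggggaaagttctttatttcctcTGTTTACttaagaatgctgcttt

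The axins, scaffolds of the complex that degrades β-catenin, had no shared region. Their windows were 105 kb for AXIN1 and 73.1 kb for AXIN2, and 31.9% of all genes with windows of 60 to 120 kb had a shared region. AXIN2, itself a widely used read-out of β-catenin signaling, had 1 intronic peak, listed in replicate 2 and enriched 4.37-fold with 22 reads and a forkhead match at the summit.

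TCF7L2 was the only one of the 4 TCF/LEF factors with a shared region. The windows of TCF7L1, TCF7L2 and LEF1 were over 120 kb, a length at which 60.4% of all genes had a shared region. TCF7L2 had 4, all of them strong, or 1.55 per 100 kb of its 257-kb window, compared with 0.529 for all protein-coding genes. Shorter genes such as DKK3 (3.21 per 100 kb) and CTNNB1 (2.85 per 100 kb) held more for their length. Every one of its 4 replicate 1 peaks had a partner among its 7 replicate 2 peaks. Of the other TCF/LEF genes, TCF7 had 2 peaks in each replicate without overlap, TCF7L1 had 4 peaks of replicate 2, and LEF1 had 1 peak of replicate 2.

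The strongest TCF7L2 region, chr10:114853059-114853833, lay in an intron with fold enrichments of 9.53 and 20.9 (mean 15.2 ± 8.07, SD, n = 2). Those at chr10:114833467-114834180, with 5.63 and 14.3, and chr10:114847031-114847621, with 4.65 and 9.72, lay in introns nearby. These 3 summits lay between 123770 and 143426 bp downstream of the canonical start. The fourth, chr10:114709689-114710226, had its summit 71 bp upstream of that start, with fold enrichments of 5.42 and 10.3 (mean 7.87 ± 3.47, SD, n = 2). The sequences of the strongest region, chr10:114853382-114853482, and of the region at the start, chr10:114709885-114709985, are shown because they differed in the same way as those of CTNNB1. Capitals mark 2 AP-1 sites in the intron, and 2 overlapping forkhead matches (ATAAACA and ATAAATA, minus strand) at the start.
TCF7L2, intron: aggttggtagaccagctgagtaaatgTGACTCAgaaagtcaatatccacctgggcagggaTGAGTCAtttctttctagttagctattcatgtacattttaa
TCF7L2, start: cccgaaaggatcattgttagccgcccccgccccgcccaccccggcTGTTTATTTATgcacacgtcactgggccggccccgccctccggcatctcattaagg

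Of the 19 WNT ligand genes, 7 had a shared region (36.8%) and 4 had a strong one (21.1%). These shares were near the 33.0% and 20.2% of all protein-coding genes. The strongest belonged to WNT7B, but lay 16867 bp beyond its 3′ end between genes, at chr22:46298997-46300008. Its fold enrichments were 15.7 and 21.4 (mean 18.5 ± 4.05, SD, n = 2), with 80 and 141 reads. WNT7A had an intronic region at chr3:13863433-13864045 with 8.76 and 13.2 (mean 10.97 ± 3.13, SD, n = 2), 57819 bp downstream of its start.

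WNT3 had the only strong ligand region close to a start site of its own gene. At chr17:44849630-44850206, the summit lay 319 bp from the start of a WNT3 transcript, 46086 bp downstream of the canonical start, with fold enrichments of 5.42 and 7.79 (mean 6.61 ± 1.68, SD, n = 2). A second WNT3 region 3679 bp beyond the 3′ end had 3.48 and 5.73. Its first region, at chr17:44849922-44850022, is shown for its match to GTAAACA 14 bp from the summit, in capitals.
WNT3: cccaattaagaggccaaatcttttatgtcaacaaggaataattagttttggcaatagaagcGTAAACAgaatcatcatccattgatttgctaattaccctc

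The remaining ligand regions were weaker. WNT16 had 1 strong intronic region with fold enrichments of 4.84 and 6.57. WNT5B had 2 shared regions that were not strong, the first with 3.52 and 8.96 and the second with 2.71 and 2.42. A region inside WNT10B, 1596 bp from a WNT10B start and 9266 bp upstream of the start of its neighbour WNT1, was counted for both genes, with 3.29 and 5.73 and 16 and 29 reads. WNT5A, a ligand of the ROR receptors, had 1 peak of replicate 2 and none of replicate 1.

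Of the 10 Frizzled receptor genes, 8 had a peak in at least 1 replicate and 1 had a shared region. Among all 20163 protein-coding genes, 14223 had a peak in at least 1 replicate and 33.0% had a shared region. The windows of 8 Frizzled genes were under 60 kb, a length at which 19.3% of all genes had a shared region. The gene with a shared region was FZD6, at chr8:104360529-104361597, which lay 16121 bp beyond its 3′ end between genes. The nearest protein-coding start was that of CTHRC1 at 22551 bp, and the nearest FZD6 start was 49033 bp away. The fold enrichments of this region were 6.51 and 20.5 (mean 13.5 ± 9.90, SD, n = 2), with 64 and 135 reads and a forkhead match at the summit.

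Another 7 Frizzled genes had peaks of 1 replicate only. The strongest of these lay 12350 bp upstream of FZD2 in replicate 2, with a fold enrichment of 5.29 and 34 reads.

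Of the co-receptors, LRP5 had 2 shared regions and LRP6 had none. Their windows were 177 and 191 kb, and 60.4% of all genes with windows over 120 kb had a shared region. The stronger LRP5 region, chr11:68081074-68081737, lay in an intron 1462 bp downstream of the canonical start, with fold enrichments of 6.20 and 7.90 (mean 7.05 ± 1.20, SD, n = 2). It is shown at chr11:68081471-68081571 because it is the only strong region within 2 kb downstream of the canonical start of one of the 46 genes. Capitals mark GTAAACA on the minus strand, 9 bp from the summit.
LRP5: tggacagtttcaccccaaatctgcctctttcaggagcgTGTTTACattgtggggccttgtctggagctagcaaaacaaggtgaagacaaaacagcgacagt

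DKK3, a secreted protein of the Dickkopf family, had 3 shared regions, whereas DKK1, an inhibitor that binds LRP5 and LRP6, had 2 peaks of replicate 2 only. Their windows were 93.6 kb for DKK3 and 43.8 kb for DKK1. A shared region was found at 31.9% of all genes with windows of 60 to 120 kb and 19.3% of those under 60 kb. The region of DKK3 at chr11:12015377-12015890 lay 668 bp from a DKK3 start inside the gene, with fold enrichments of 2.72 and 7.63 (mean 5.18 ± 3.47, SD, n = 2). That at chr11:12014065-12014565, 1957 bp from the same kind of start, was strong, with 4.08 and 4.53 (mean 4.31 ± 0.314, SD, n = 2) and 32 and 59 reads. The last, with 2.60 and 5.68, lay 85 bp from a start of the neighbouring gene USP47. The windows chr11:12015548-12015648 and chr11:12014259-12014359 are shown because the second was the only summit of the 31 regions with a TCF/LEF site (CTTTGAT or CTTTGAA). In that window the capitals mark ATAAACA and CTTTGAT, each found once on either strand, within an inverted repeat whose arms of 21 bases were separated by 6 bases. In the first window they mark an AP-1 site.
DKK3, first: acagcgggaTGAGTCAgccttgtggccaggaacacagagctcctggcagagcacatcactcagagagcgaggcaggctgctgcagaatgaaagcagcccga
DKK3, inverted repeat: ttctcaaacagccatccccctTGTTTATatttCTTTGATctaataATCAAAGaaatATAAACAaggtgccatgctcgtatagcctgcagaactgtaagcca
Inverted repeats with arms of at least 15 bases were found in the 101-bp windows of 8 of the 13238 shared regions. This feature was looked for after the sequence had been seen.

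The strongest region of each gene spanned a wide range of fold enrichment. In order of the mean over the replicates, PRICKLE2 (72.1), CTNNB1 (45.1) and ROR1 (41.0) came first, followed by WNT7B (18.5), TCF7L2 (15.2), FZD6 (13.5) and WNT7A (10.97), and the other 10 genes lay between 4.51 and 7.05. WNT1 and WNT10B share 1 region, which leaves 15 neighbouring pairs of different regions. Since all regions were measured in the same 2 libraries, neighbours were compared within each library. The order was the same in both replicates for 8 pairs, among them PRICKLE2 above CTNNB1, CTNNB1 above ROR1 and ROR1 above WNT7B, and opposite for 7. FZD6, for example, was below WNT7A in replicate 1 and above it in replicate 2. The order of CTNNB1 and ROR1 was that of fold enrichment and was reversed on other measures. By reads over the summit, ROR1 (285 and 393) was above CTNNB1 (235 and 358) in both replicates. By −log10 p, the ROR1 peaks ranked 69 and 51 in replicates 1 and 2, and the CTNNB1 peaks 98 and 61. An exact two-sided permutation test over 2 paired libraries cannot give a p below 0.5, so no pair was tested.

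Replicate 2 gave the higher fold enrichment in 29 of the 31 regions (93.5%, Wilson interval 79.3 to 98.2%), compared with 91.9% of all shared regions. Fold enrichment was 1.81 times as high in replicate 2 at the median region. On the log2 scale this median ratio was 0.85 (SD 0.48), compared with 0.75 (SD 0.52) over all shared regions. Median reads at these summits numbered 27 in the first and 50 in the second replicate. The exceptions were the second WNT5B region and the ROR1 region near ROR1-AS1. Between replicates, summit positions differed by 15 bp at the median and by at most 93 bp in all 31 regions.

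**Figure D4:**
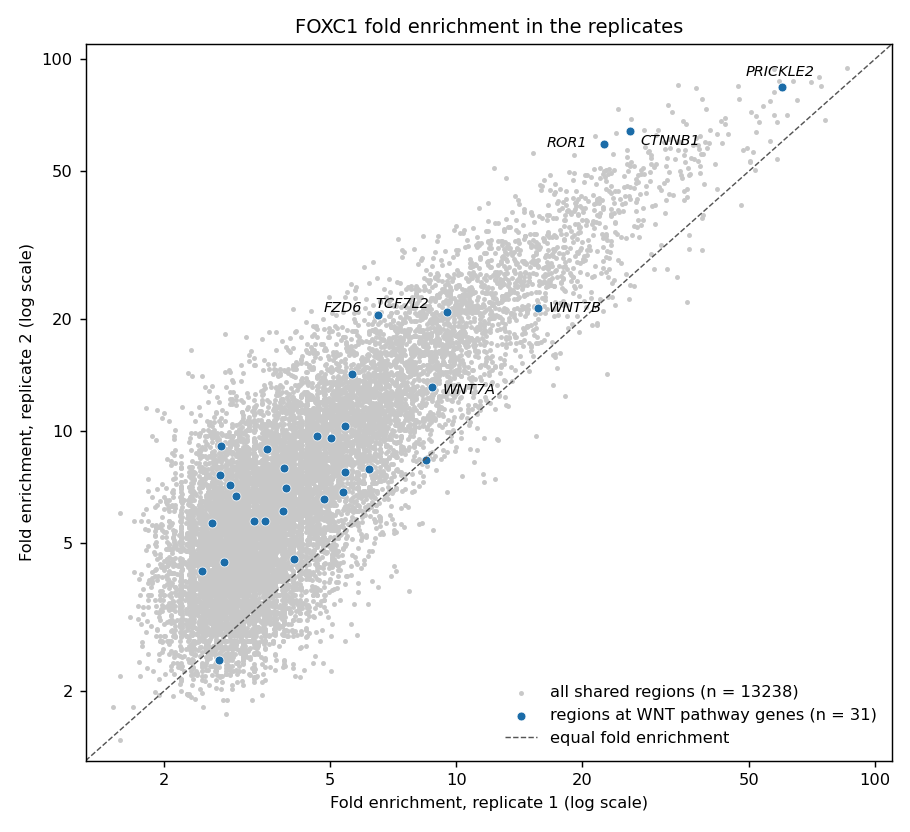
Fold enrichment in replicate 2 against replicate 1 (both on log scales) for all 13238 shared regions (grey) and the 31 regions at WNT pathway genes (blue), with the line of equal values. Genes are named at the 7 regions that had the best ranks in both lists, and nearly all blue points lie above the line.

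Peaks without a partner were weak in replicate 1 and less so in replicate 2. Of the 56 replicate 1 peaks at these genes, 31 had a partner (55.4%, interval 42.4 to 67.6%), and of the 111 replicate 2 peaks, 31 did (27.9%, interval 20.4 to 36.9%), compared with 59.6% and 31.7% of all peaks. The share of replicate 2 at these genes was 47.6% when both lists were held to the same length, a setting not computed for all peaks. The 25 unpaired peaks of replicate 1 had fold enrichments of 2.19 to 2.90 and a −log10 q of 0.297 to 1.85. The 80 unpaired peaks of replicate 2 had fold enrichments of 2.42 to 5.99, and 19 had a −log10 q of at least 5, among them peaks at DKK3, ROR1 and WNT5B with fold enrichments of 5.22, 5.97 and 5.99. Forkhead matches were found at 3 of the 25 unpaired summits of replicate 1 (12%, interval 4.17 to 29.96%) and at 27 of the 80 of replicate 2 (33.8%, interval 24.3 to 44.6%). These 2 shares were not computed for the unpaired peaks of the whole lists. Whether they are particular to these genes was therefore not tested.

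Most regions were intronic. Of the 31, 25 had their summit in an intron, 1 in an exon, 1 in untranslated sequence and 4 between genes, and 24 lay inside the body of one of the 46 genes. For 23 regions the nearest protein-coding start was that of the gene to which the region was assigned. These placements were not counted over all shared regions, and the assignment rule itself takes only summits in or near a gene body. Within 2 kb of any annotated start, the distance used by the study for promoters, lay 12 regions (38.7%, interval 23.7 to 56.2%), compared with 20.05% of all shared regions and 25.9% of those in the windows of protein-coding genes. When starts were limited to transcripts tagged basic, 6 regions were left (19.4%, interval 9.19 to 36.3%), compared with 15.02 and 18.8%. Only 9 regions, at 8 genes, lay within 2 kb of a start of their own gene, and these starts were often internal ones.

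Forkhead sequences marked the summits at these genes about as often as elsewhere. The forkhead forms were ATAAACA with its variant ATAAATA. The same pair of forms starting with a different base, GTAAACA with its variant GTAAATA, was also searched, all on both strands. A match lay within 50 bp of the summit in 13 of the 31 regions (41.9%, interval 26.4 to 59.2%), compared with 48.7% of all shared regions. In control windows 500 bp downstream, 2 of the 31 had a match (6.45%, interval 1.79 to 20.7%), compared with 10.8% of all. AP-1 sites, which are bound by FOS and JUN proteins, lay at 7 summits (22.6%, interval 11.4 to 39.8%) and in 1 control window, compared with 16.6 and 1.93% of all shared regions. TCF/LEF sites, through which β-catenin acts, lay at 1 summit (3.23%, interval 0.572 to 16.2%) and in 4 control windows, compared with 4.02 and 3.81%. The extended element lay at the summits of PRICKLE2 and ROR1 only, 2 of 31 regions (6.45%), compared with 8.98% of all shared regions. In the control windows it was found in 1 of the 31 (3.23%), compared with 0.922% of all.

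Forkhead and AP-1 matches were present together at 2 of the 31 summits (6.45%, interval 1.79 to 20.7%), compared with 7.34% of all shared regions. These were the WNT3 region beyond the 3′ end of the gene and the TCF7L2 region at chr10:114847031-114847621. At least 1 of the matches was present at 18 summits, a count not made over all shared regions. Of the 12 regions within 2 kb of a start, 7 had a forkhead match (58.3%, interval 32.0 to 80.7%), compared with 49.4% of all such regions, and 1 had an AP-1 site (8.33%, interval 1.49 to 35.4%), compared with 12.0%. Of the other 19 regions, 6 had a forkhead match (31.6%, interval 15.4 to 54.0%), compared with 48.5%, and 6 had an AP-1 site, compared with 17.8%. Each share of all shared regions lay inside the interval at the WNT pathway genes. No match of any kind was found at 12 summits, including that of PRICKLE1, and this was not counted over all shared regions either. The absence of a match says only that these letters did not occur in the window.

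**Figure D5:**
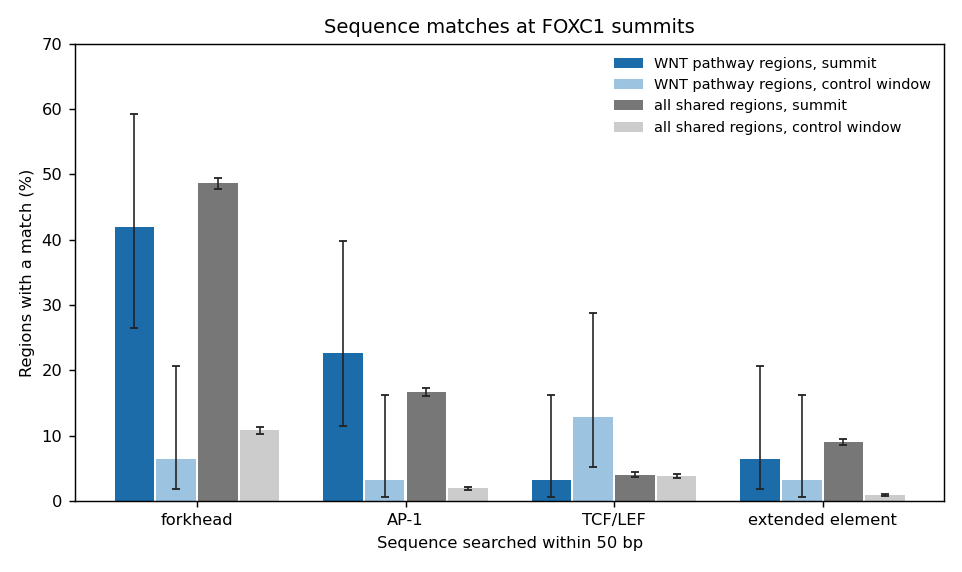
Percentage of regions with a forkhead, AP-1, TCF/LEF or extended element within 50 bp of the FOXC1 summit or of a control position 500 bp downstream, for the 31 regions at WNT pathway genes (blue) and all 13238 shared regions (grey), with 95% Wilson intervals. Forkhead and AP-1 bars are higher at the summits than in the control windows in both sets, and the TCF/LEF bars of all shared regions are of nearly the same height.

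A wider list of 57 other WNT pathway genes, among them secretion factors, R-spondins and their receptors, secreted inhibitors, Dishevelled proteins and nuclear cofactors, was described in the same way. Shared regions were assigned to 27 of them (47.4%) and strong ones to 14 (24.6%), compared with 33.0 and 20.2% of all protein-coding genes. Their windows were longer, with a median of 90.1 kb compared with 67.2 kb for all protein-coding genes and 75.8 kb for the 46 genes, and per 100 kb they held 0.650 shared regions. The best-ranked region lay in an intron of WLS, which carries WNT proteins to the cell surface, with fold enrichments of 49.5 and 57.6. LGR4, a receptor for R-spondins, had an intronic region with 16.5 and 38.1, and RNF43, a ubiquitin ligase that removes Frizzled receptors, had one with 15.8 and 24.7. CELSR1, a cadherin of planar polarity, had a region with 13.4 and 17.9, and RSPO3, a secreted R-spondin, one 16178 bp from its start with 10.8 and 16.3. The formin gene DAAM1 had 5 shared regions, the best-ranked with 5.76 and 12.3.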

How the data were processed

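The authors profiled FOXC1 by ChIP-seq in J82 with 2 ChIP replicates and 2 input libraries, assigned to groups and replicates by their titles. According to the study's methods and the submitters' processing notes, single-end reads of 75 bp were mapped to hg19 with bwa, and peaks were called per replicate against input with MACS2 2.2.7.1. The values are those the authors deposited: a fold enrichment (ratio of ChIP pileup to local background, each with 1 added), a −log10 p-value, a −log10 q-value and a score, the −log10 p multiplied by 10 and truncated. The filter that ends the lists is not given in the sources used here. Input coverage, the study's set of reproducible peaks and its RNA data were not analysed here.

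Entries off chromosomes 1 to 22, X and Y were left out. Gene models were those of GENCODE version 44 lifted to GRCh37 (hg19 coordinates), whereas the study names version 19 for its RNA counts. Peaks overlapping by at least 1 bp were merged into shared regions, each represented by its peak with the highest −log10 p per replicate and by the midpoint of these summits. Whole reads over each summit and the local background were solved from the fold enrichment and −log10 p (residual under 0.001, scaled up in proportion above a −log10 p of 100), with the genome-wide background taken as the commonest value. This solved 100% of peaks, and intervals cover counting error only. Read totals rest on a genome size of 2.7 Gb and fragment lengths of 260 and 270 bp, the smallest peak widths. Shares have 95% Wilson intervals. Python 3.11.15, scipy 1.17.1 and pysam 0.24.0 were used, and the code was tested on simulated data.

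No comparison between groups was possible with 1 group of peak lists, so no test was run. The genes and lists were chosen with earlier results of these data known, and all shares are descriptions beside those of all genes. Every gene was accounted for. Genes with a strong region were given the values of their strongest region and up to 3 more. The others were given by counts, some of them also with values of their regions or peaks. Of the other pathway genes, the 6 best-ranked were named. Sequences are those of the 10 best-ranked genes, without chromosome 8, untranslated sequence and a pair of windows not reported here, with a second region where the text describes it, and come from GRCh37. Alternatives to the flank, overlap rule, limits, promoter distance and search window were tried.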

Additional observations from a re-analysis of the deposited data

How the results depend on the processing

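Of 44 recomputed values, 33 stayed within 1.5 times the count, within the interval of the share, or within the SD of the ratio, and 11 moved. A flank of 50 kb gave 47 shared regions in place of 31. A −log10 q of at least 5 in both replicates left 18 regions, and a fold enrichment of at least 5 in both left 14 regions at 9 genes in place of 17. Taken alone, the replicates gave 56 and 111 peaks at 23 and 36 genes. The share within 2 kb of a start moved from 38.7% to 22.6% within 1 kb and to 19.4% with starts of basic transcripts, and was 27.9 to 28.6% in the replicates alone. The forkhead share moved from 41.9% to 22.6% for GTAAACA only, and was 26.8 to 35.1% in the replicates alone. With lists of equal length, 47.6% of the replicate 2 peaks at these genes had a partner in place of 27.9%. The median number of shared regions per 100 kb was 0 under all 4 alternatives tried for it. No paired analysis was possible because the input libraries, which share replicate numbers with the ChIP libraries, entered only through the authors' peak calling. Depth limits the weaker regions: a summit with 16 reads has an exact Poisson interval of 9.15 to 26.0 reads.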
